A study of Homo sapiens with 23 samples.

Results

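Amino acid transporter genes were examined in a human melanoma line and in 7 clones of it that grew out under drugs against the BRAF and MEK kinases. The genes were chosen by symbol alone: SLC1A1 to SLC1A7, SLC3A1 and SLC3A2, SLC36A1 to SLC36A4, and every numbered SLC6A, SLC7A, SLC38A and SLC43A gene in the deposited expression table. This gave 58 of the 35438 genes in the table. Of these, 32 passed a filter on low values and were tested, among 15657 genes tested in all.

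RNA was sequenced in 23 libraries of 8 groups. The untreated group (3 libraries) was WM989 A6-G3, a melanoma line derived by repeated passage through single cells and grown without drug. Clones 7, 8 and 9, which the labels name WM989 A6-G3 F9, WM989 A6-G3 G12 and WM989 A6-G3 I11, were resistant to the BRAF inhibitor vemurafenib and were kept in it at 1 µM (3 libraries each). Clones 10, 11, 12 and 13, named WM989 A6-G3 A2, WM989 A6-G3 A11, WM989 A6-G3 C3 and WM989 A6-G3 E8, were resistant to the BRAF inhibitor dabrafenib with the MEK inhibitor trametinib, and were kept in both, dabrafenib at 250 nM together with trametinib at 2.5 nM (3 libraries each, 2 for clone 11). All groups were grown in the same Tu2% melanoma medium with 2% serum, and the labels give the genotype of every library as WT. Each clone came from 1 resistant colony, so a value for a clone describes that colony. Every clone was both resistant and in drug when sampled, so resistance and the presence of drug cannot be told apart. The labels speak of biological replicates but do not say what set them apart, so p-values measure the spread between these libraries, which may be technical.

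Most amino acids cross the plasma membrane on carriers of the solute carrier (SLC) families. Some carriers, such as the SLC38 family, move amino acids in together with sodium, while others, such as the SLC7 light chains, swap an amino acid inside the cell for another outside and need the heavy chain SLC3A2 to reach the membrane. The amino acids brought in feed protein synthesis, the growth-controlling kinase mTORC1 and, through cystine, the antioxidant glutathione. Many carrier genes are known targets of ATF4, the transcription factor that cells make more of when amino acids run short.

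Levels are given as TPM, a share of all transcripts corrected for transcript length, so levels of different genes can be set side by side. Each library was divided by a scaling factor (0.742 to 1.14) that brings the bulk of the genes to a common level, and these values are called scaled TPM. Differences are log2 fold changes of scaled TPM + 1, tested with limma and adjusted by the Benjamini-Hochberg method over all 15657 genes. A gene is called higher or lower where the adjusted p was under 0.05 and the log2 fold change was at least 1 in size. Because 1 was added, the fold change of a gene with a low level is understated. The comparisons of the clones with the untreated line all share the same 3 untreated libraries and are not independent.

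The remaining 26 genes were scarcely present in any group. The highest value of any of them in any library was 1.10 scaled TPM, for the betaine and GABA carrier SLC6A12. Of the 26, 20 stayed under 0.5 scaled TPM in every library, and SLC7A3 and SLC7A10 were listed at 0 in all 23. They included the neurotransmitter carriers SLC6A2, SLC6A3, SLC6A4, SLC6A5 and SLC6A11, the kidney and gut carriers SLC3A1, SLC6A18, SLC6A19, SLC6A20 and SLC7A9, the astrocyte glutamate carrier SLC1A2, and SLC1A6, SLC6A7, SLC6A13, SLC6A14, SLC6A17, SLC7A4, SLC7A13, SLC36A2, SLC36A3, SLC38A5 and SLC38A8.

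Markers and library composition differed between the untreated line and the clones far beyond the transporter genes. All 6 melanocyte-lineage markers fell, from a sum of 11952 to 12317 scaled TPM in the untreated libraries to 20.9 to 465 in the clone libraries. All 8 fibroblast-associated genes rose, from 59.9 to 69.3 to sums of 2179 to 8025. The 5 keratinocyte markers summed to 8.62 to 10.3 in untreated and 9.95 to 18.2 in clone libraries, with KRT5, KRT1 and CDH1 under 1 scaled TPM everywhere. The 4 endothelial markers summed to 0.51 to 0.769 and 1.11 to 5.14 (CDH5 and KDR under 1 everywhere), and the 5 immune markers to 2.21 to 2.76 and 1.02 to 6.43 (CD3E and CD14 under 1 everywhere). The 5 neuron and astrocyte markers summed to 1.99 to 2.99 and 10.6 to 66.2; SYT1, RBFOX3 and AQP4 stayed under 1, and SNAP25 was called higher. Mitochondrially encoded transcripts made up 20.6% to 21.2% of TPM in untreated and 6.74% to 15.6% in clone libraries. Replicate 1 of clone 10 stood apart, with 14415 genes above 0 against 18671 to 24039 in the other libraries, and with 23 of the 58 transporter genes listed at 0. Replicate 3 of clone 8 also stood apart, with the smallest scaling factor (0.742), 6.74% mitochondrial and 28.7% ribosomal protein transcripts. Ribosomal protein transcripts made up 20.7% to 22.7% of TPM in untreated libraries and 9.56% to 14.8% in clones 10 to 13. The part these differences play in the transporter results was not tested. In bulk RNA, fewer cells of a type and less RNA per cell cannot be told apart.

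Some transporter genes rose and others fell when the mean of the 7 clones was set against the untreated line. SLC38A4, SLC43A2, SLC38A2 and SLC6A6 were called higher, which is 4 of 32, or 12.5%, beside 10.9% of all tested genes. Of these, SLC38A4 passed the filter on low values through clone libraries alone. SLC6A15, SLC38A11, SLC7A1, SLC1A4, SLC6A8, SLC7A5, SLC43A3 and SLC1A3 were called lower, which is 8 of 32, or 25%, beside 7.91% of all tested genes. Without scaling the split was 5 higher and 5 lower: SLC7A11 was added above, and SLC1A3, SLC43A3 and SLC7A5 missed the fold minimum. Over all tested genes, 2006 were called higher and 973 lower without scaling. A further 9 genes had an adjusted p under 0.05 but a change under the fold minimum, among them SLC7A6 at -0.97 and the cystine carrier SLC7A11 at 0.94. The median over the 32 genes was -0.12, against -0.01 over all tested genes. Summed over all 58 genes, transporter RNA came to 1604 ± 18.0 scaled TPM (SD, n = 3) in untreated libraries and ranged from 1104 ± 25.0 in clone 8 to 1586 ± 480 in clone 13 (n = 3 each).

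**Figure D1:**
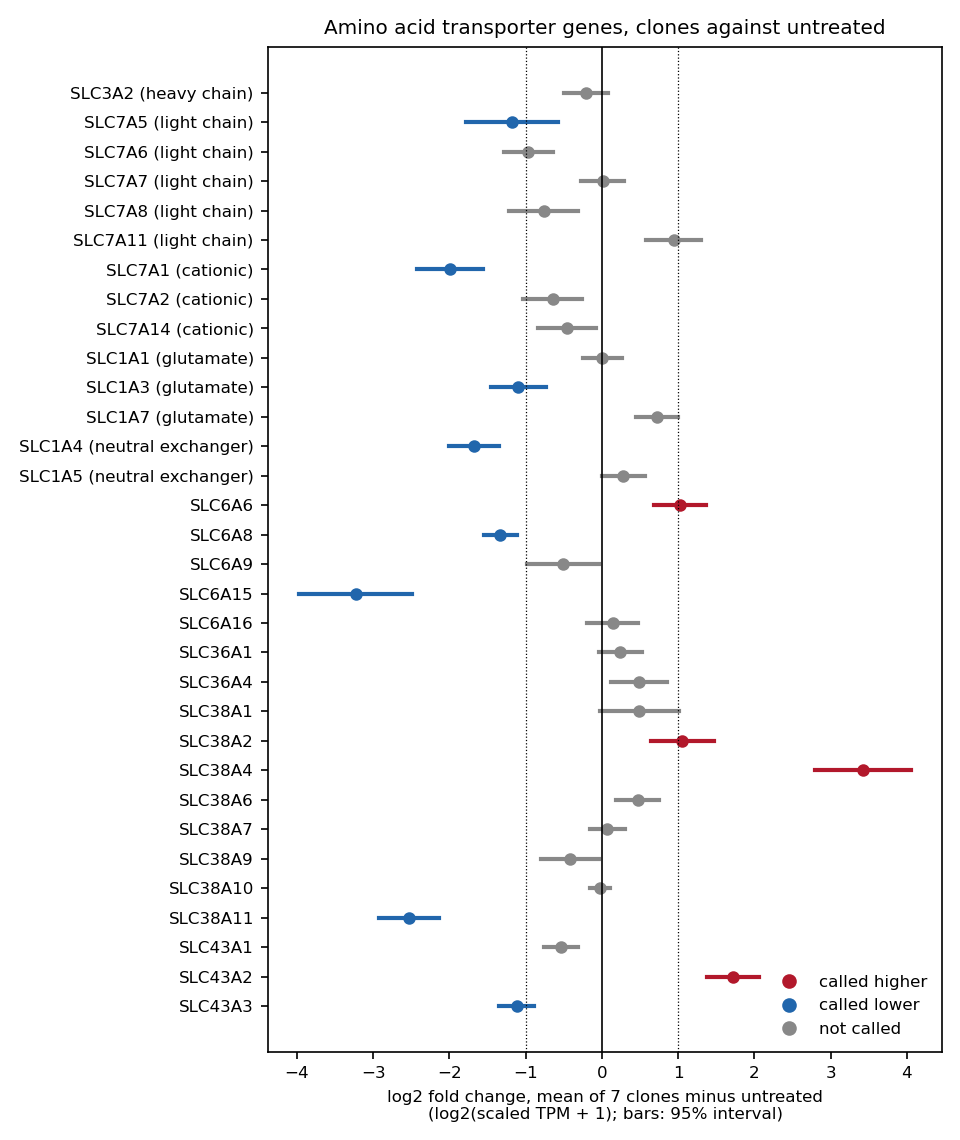
Log2 fold change of the 32 tested amino acid transporter genes, mean of the 7 clones minus untreated (horizontal axis, log2 of scaled TPM + 1), with bars for the 95% interval and dotted lines at the fold minimum of 1. SLC38A4 lies farthest to the right at 3.43 and SLC6A15 farthest to the left at -3.23; 4 genes are marked as called higher and 8 as called lower.

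Of the 32 genes, 6 to 10 were called lower and 2 to 7 higher in single clones. Called higher were 2 genes in clone 7 (11% of all tested genes), 3 in clone 8 (11.1%), 3 in clone 9 (11.5%), 7 in clone 10 (11.8%), 3 in clone 11 (11.7%), 5 in clone 12 (11.5%) and 4 in clone 13 (12.3%). Called lower were 8 in clone 7 (8.55% of all tested genes), 10 in clone 8 (9.29%), 10 in clone 9 (8.29%), 8 in clone 10 (10.5%), 8 in clone 11 (9.53%), 7 in clone 12 (8.02%) and 6 in clone 13 (8.36%). Without scaling, clone 10 had 8 calls higher against 5 lower, clone 12 had 6 against 5, and clone 13 had 5 against 5. The median over all tested genes also rose without scaling, to 0.21 in clone 10, 0.16 in clone 12 and 0.15 in clone 13. The shares of all tested genes called in single clones without scaling were not counted. SLC38A4, which passed the filter through clone libraries alone, was called higher in all 7 clones, 1 of 32 beside 4.87% of all tested genes. SLC38A1, called higher in clone 8, and SLC1A7, called higher in clones 10 and 12, also passed the filter through clone libraries alone. SLC1A4, SLC7A1, SLC6A15 and SLC38A11 were called lower in all 7, 4 of 32 beside 4.18%. In all, 20 genes were called in at least 1 clone, in either direction, beside 38% of all tested genes, and 12 in none.

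For the genes called the same way in all 7 clones, and for SLC7A5, the most abundant light chain, the 250 bases before the start site are shown where the table of promoters held them; no window was at hand for SLC6A15. The sequences come from RefSeq (GRCh38.p14) and are written 5′ to 3′ on the strand of the gene. Capitals mark a match to 1 of 4 short motifs searched on both strands: the E-box CACGTG, TGATGNAA (a core of the element that ATF4 binds with C/EBP partners), TGANTCA (the AP-1 site) and TGACNNNGC (a core of the antioxidant response element, which can overlap an AP-1 match). The windows are SLC38A4 at chr12:46825998-46826247 (minus strand), SLC38A11 at chr2:164955526-164955775 (minus), SLC1A4 from a pair of start sites at chr2:64988229-64988478 and chr2:64989149-64989398 (both plus), SLC7A1 at chr13:29595689-29595938 (minus) and SLC7A5 at chr16:87869508-87869757 (minus).
SLC38A4: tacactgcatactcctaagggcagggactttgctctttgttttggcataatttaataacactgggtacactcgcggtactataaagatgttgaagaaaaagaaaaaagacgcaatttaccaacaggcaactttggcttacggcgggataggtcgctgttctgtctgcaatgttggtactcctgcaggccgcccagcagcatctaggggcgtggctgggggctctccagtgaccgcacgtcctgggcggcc
SLC38A11: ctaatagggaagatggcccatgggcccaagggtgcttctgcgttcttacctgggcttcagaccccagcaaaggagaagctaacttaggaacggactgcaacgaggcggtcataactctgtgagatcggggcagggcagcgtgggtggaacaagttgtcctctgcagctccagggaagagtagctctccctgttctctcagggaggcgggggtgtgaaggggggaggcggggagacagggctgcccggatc
SLC1A4, first start site: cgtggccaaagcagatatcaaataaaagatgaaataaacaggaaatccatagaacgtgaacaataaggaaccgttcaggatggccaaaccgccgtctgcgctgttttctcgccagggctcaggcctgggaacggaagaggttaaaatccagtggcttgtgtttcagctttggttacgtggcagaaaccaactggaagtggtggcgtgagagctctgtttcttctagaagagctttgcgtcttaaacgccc
SLC1A4, second start site: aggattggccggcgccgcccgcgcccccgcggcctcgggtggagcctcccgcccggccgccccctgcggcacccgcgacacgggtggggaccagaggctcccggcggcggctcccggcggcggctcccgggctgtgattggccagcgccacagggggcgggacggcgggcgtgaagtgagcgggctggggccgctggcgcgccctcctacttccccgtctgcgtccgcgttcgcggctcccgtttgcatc
SLC7A1: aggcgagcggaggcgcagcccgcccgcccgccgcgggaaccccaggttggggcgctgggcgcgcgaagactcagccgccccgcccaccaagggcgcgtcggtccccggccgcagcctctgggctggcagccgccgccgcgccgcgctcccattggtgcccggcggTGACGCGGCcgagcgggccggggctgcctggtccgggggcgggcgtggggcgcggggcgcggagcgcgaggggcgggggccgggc
SLC7A5: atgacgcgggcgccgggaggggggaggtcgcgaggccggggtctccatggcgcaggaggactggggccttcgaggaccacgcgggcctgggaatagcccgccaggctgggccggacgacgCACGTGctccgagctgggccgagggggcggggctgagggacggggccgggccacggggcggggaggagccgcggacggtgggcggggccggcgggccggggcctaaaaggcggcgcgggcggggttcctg

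These windows differed mainly in base composition. GC content was 84.4% for SLC7A1, 79.6% for SLC7A5 and 51.6% for SLC38A4, and SLC7A1 held 43 CpG dinucleotides against 11 for SLC38A4. The pair of SLC1A4 windows differed as much from each other, at 48.4% and 79.6% GC. SLC7A1 held a TGACNNNGC match 85 bases before the start site, and SLC7A5 held CACGTG 130 bases before it. The windows of SLC38A4, SLC38A11 and SLC1A4 held none of the 4 motifs. Windows were found for 27 of the 32 tested genes (48 windows); SLC43A3, SLC6A15, SLC6A6, SLC7A11 and SLC7A2 had none. CACGTG was present in 8 of the 48 windows (16.7%), against 6.34% of all 35116 windows of this length. TGATGNAA was present in 2 of 48 (4.17%) against 3.14%, TGANTCA in 7 of 48 (14.6%) against 6.57%, and TGACNNNGC in 6 of 48 (12.5%) against 10.9%. Some genes had several windows, a few of them overlapping, so the 48 are not independent. Their median GC content was 61.6% against 58% for all windows, and their median CpG count 14.5 against 11. Enrichment was not tested. A match is a run of letters and says nothing about which factor bound there.

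Among the sodium-coupled SLC38 carriers, which take up glutamine, alanine and other small neutral amino acids, SLC38A4 rose from almost nothing in every clone. The untreated libraries had 0.0896, 0.0278 and 0.0595 scaled TPM. Clones 9, 10 and 12 were highest, at 25.3, 18.4 and 26.3 in clone 9, at 11.5, 29.4 and 26.1 in clone 10, and at 17.0, 24.0 and 26.0 in clone 12. Clone 7 had 7.06, 4.83 and 6.09, clone 8 had 12.5, 12.3 and 6.61, and clone 13 had 4.36, 11.5 and 21.3. Clone 11 was lowest, with 0.961 and 1.93, yet still above each untreated library. The mean of the clones was 3.43 higher on the log2 scale (SE 0.30, adjusted p = 9.13e-09), and adding 0.1 in place of 1 made this 5.99. For clone 11 the difference was 1.18 (adjusted p = 0.0374), a call that was lost when either clone 11 library, any untreated library or the filter was left out, and when a replicate block was added.

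SLC38A2 (SNAT2), a sodium-coupled carrier known to increase when amino acids are short, was the most abundant SLC38 gene. The untreated libraries had 74, 96.2 and 101 scaled TPM, and the 20 clone libraries ran from 93.8 through a median of 183 to 429. Clone 10 held the highest values, at 285, 429 and 241, and replicate 3 of clone 8 lay at 93.8, within the untreated range, so the groups overlapped. SLC38A2 rose by 1.06 averaged over the clones (SE 0.20, adjusted p = 0.000153). It was called higher in clones 10, 11 and 12, but not in clone 11 once untreated replicate 1 (0.95) or clone 11 replicate 2 (0.85) was left out. Without untreated replicate 1 the mean change was 0.92, under the fold minimum.

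SLC38A11, a less studied member of the family, fell in all 7 clones. Untreated libraries had 6.75, 5.97 and 6.38 scaled TPM, and the clone libraries ran from 0.0143 through a median of 0.222 to 1.73. Every clone library lay below every untreated one, and the highest, 1.73, was replicate 1 of clone 10. The fall in the mean of the clones was -2.53 (SE 0.19, adjusted p = 7.9e-10), or -4.33 with 0.1 added in place of 1. The remaining 5 tested SLC38 genes were not called in the mean of the clones. Of these, SLC38A6 was at 0.47 (adjusted p = 0.00555), SLC38A1 at 0.49 (adjusted p = 0.0946), and SLC38A9, the lysosomal arginine sensor for mTORC1, at -0.42 (adjusted p = 0.0598). SLC38A7 and SLC38A10 were at 0.07 and -0.02. SLC38A1 was called higher in clone 8, at 3.85, 3.45 and 2.30 scaled TPM against 0.481, 0.305 and 0.321 in untreated libraries. The difference for clone 8 was 1.60 (adjusted p = 0.000403). SLC38A1 passed the filter on low values through clone libraries alone, so the filter itself favoured this call. Clone 9, at 1.96, 1.12 and 2.21, was just under the fold minimum (0.99, adjusted p = 0.0169) and past it without scaling (1.04), with 0.1 added (1.96), and without untreated replicate 1 (1.05), clone 8 replicate 3 (1.00) or clone 9 replicate 2 (1.18).

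The SLC43 family carries large neutral amino acids without sodium, and its members moved in opposite directions. SLC43A2 (LAT4) was at 1.09, 1.11 and 1.30 scaled TPM in untreated libraries and at 1.69 to 17.9 in clones, with a median of 6.64. All clone libraries were above all untreated ones, though clone 11, at 1.69 and 1.75, was only just above. The rise in the mean of the clones was 1.73 (SE 0.16, adjusted p = 2.53e-08). SLC43A2 was called in every clone but clone 11, where the difference was 0.33 (adjusted p = 0.288). SLC43A3, the abundant family member, which is known to carry purine bases rather than amino acids, fell. It was at 173, 178 and 170 in untreated libraries and at 39.1 to 137 in clones (median 86.9), without overlap. Its fall was -1.12 (SE 0.11, adjusted p = 3.5e-08), and without scaling -0.94, under the fold minimum. Of the single clones, SLC43A3 was called lower in clones 9, 10 and 11 only. SLC43A1 was at -0.54 (adjusted p = 0.000229), below the fold minimum.

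**Figure D2:**
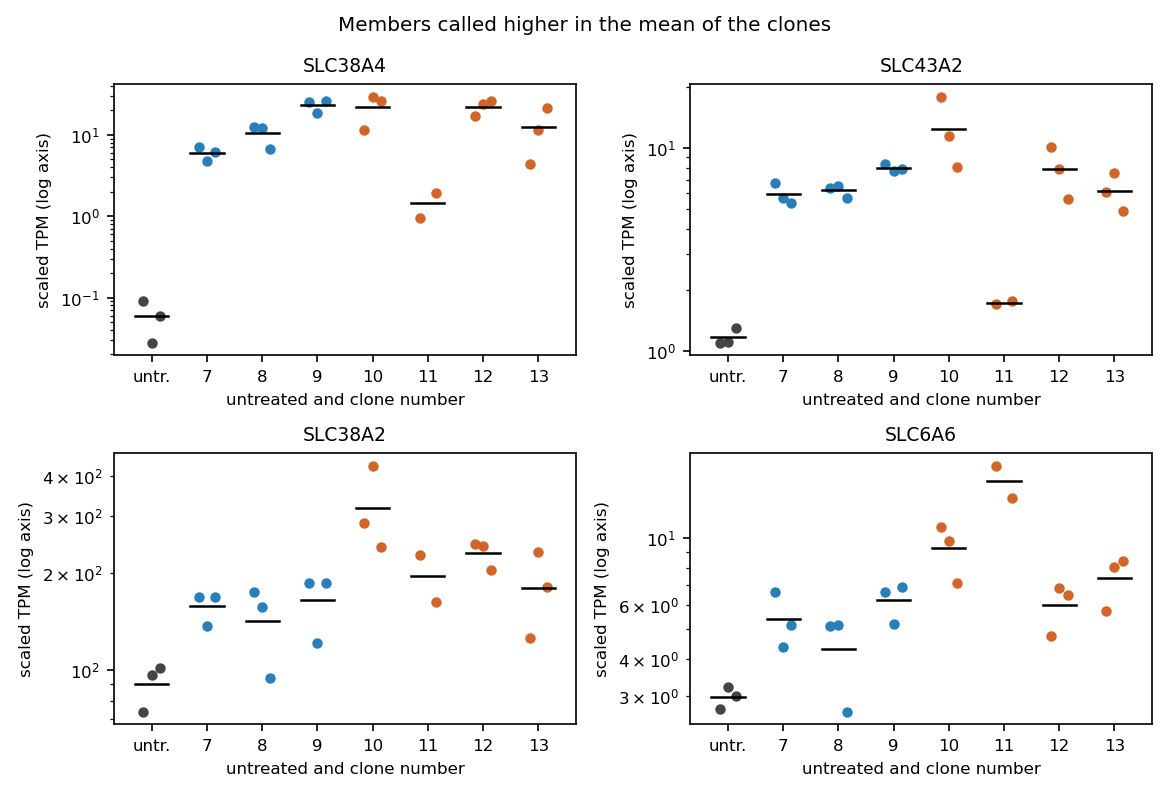
Scaled TPM of the 4 genes called higher in the mean of the clones (vertical axes, log scale), by untreated line and clone number (horizontal axes); each point is 1 library, black lines are group means, grey is untreated, blue the vemurafenib clones and orange the dabrafenib/trametinib clones. Clone 11 sits close to the untreated libraries for SLC43A2, at 1.69 and 1.75, and is the lowest clone for SLC38A4.

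Every clone library lay above every untreated library for 3 of the 32 transporter genes, SLC38A4, SLC43A2 and SLC1A7, beside 14.5% of all tested genes. SLC38A4 and SLC1A7 passed the filter on low values through clone libraries alone, so the filter itself favoured their place in this count. SLC1A7 was also near the floor, with means of 0.004 scaled TPM in untreated and 0.058 in clone 7. Every clone library lay below every untreated one for 6, SLC1A4, SLC38A11, SLC43A3, SLC6A15, SLC6A8 and SLC7A1, beside 13.3% of all tested genes.

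The cationic carrier SLC7A1 (CAT1), the main entry route for arginine and lysine in many cells, fell in all 7 clones. Untreated libraries had 36.1, 41.9 and 43.2 scaled TPM. The clone libraries ran from 5.82 through a median of 8.54 to 22.5, the highest being replicate 2 of clone 13, and none reached the untreated range. The fall in the mean was -1.99 (SE 0.21, adjusted p = 1.13e-07), and single clones ranged from -2.35 in clone 9 to -1.49 in clone 11. SLC7A2 (CAT2), a second cationic carrier, was at 14.1, 17.0 and 18.5 in untreated libraries and was not called in the mean of the clones (-0.65, adjusted p = 0.00603). It was low in clone 11, at 3.00 and 3.16 (difference -2.10, adjusted p = 3.35e-06), while clone 10 had 16.9, 12.1 and 22.1. SLC7A14, a lysosomal relative, was at -0.46 (adjusted p = 0.0371).

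Of the neutral exchangers SLC1A4 and SLC1A5, which trade alanine, serine, cysteine and, for SLC1A5, glutamine, the first fell in every clone and the second was called in none. SLC1A4 (ASCT1) was at 98.9, 104 and 102 scaled TPM in untreated libraries and at 23.0 to 58.4 in clones, with a median of 29.2. The groups were well apart, and the clones ranged only from -1.88 to -1.41 in their differences from untreated. The fall in the mean was -1.67 (SE 0.15, adjusted p = 2.03e-08). SLC1A5 (ASCT2) was among the most abundant transporter genes in every group, at 251, 243 and 231 in untreated libraries and 233 to 504 in clones (median 286). Its ranges overlapped, and the difference was 0.28 (95% interval -0.00 to 0.57, adjusted p = 0.0848), an interval that holds no change of 1 in either direction. Without scaling the difference was 0.46 (limma, adjusted p = 0.00705), still under the fold minimum.

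SLC6A15, a sodium-dependent carrier of leucine, isoleucine, valine and proline that is best known from neurons, had the largest fall of the 32 genes on the log2 scale with 1 added; with 0.1 added it was at -3.70 and SLC38A11 lower still. Untreated libraries had 34.8, 38.6 and 37.7 scaled TPM, and clone libraries ran from 0.144 through a median of 3.61 to 8.67. No clone library came near the untreated ones, and all 7 clones were called lower. The mean fell by 3.23 on the log2 scale (SE 0.35, adjusted p = 2.32e-07). Within clone 10, replicate 1 had 5.55 while the other libraries had 0.415 and 0.144. SLC6A8, the creatine carrier, was at 149, 160 and 157 in untreated libraries and at 35.8 to 94.2 in clones (median 64.2), without overlap. Its fall was -1.33 (SE 0.10, adjusted p = 1.22e-09), and it was called in every clone but clone 12 (-0.87, adjusted p = 2.35e-05). Without scaling, its calls in clones 7 (-0.96) and 10 (-0.99) were lost as well. A near-identical pseudogene, SLC6A10P, was listed at a mean of 1.45 in untreated libraries, and reads may be shared between them.

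**Figure D3:**
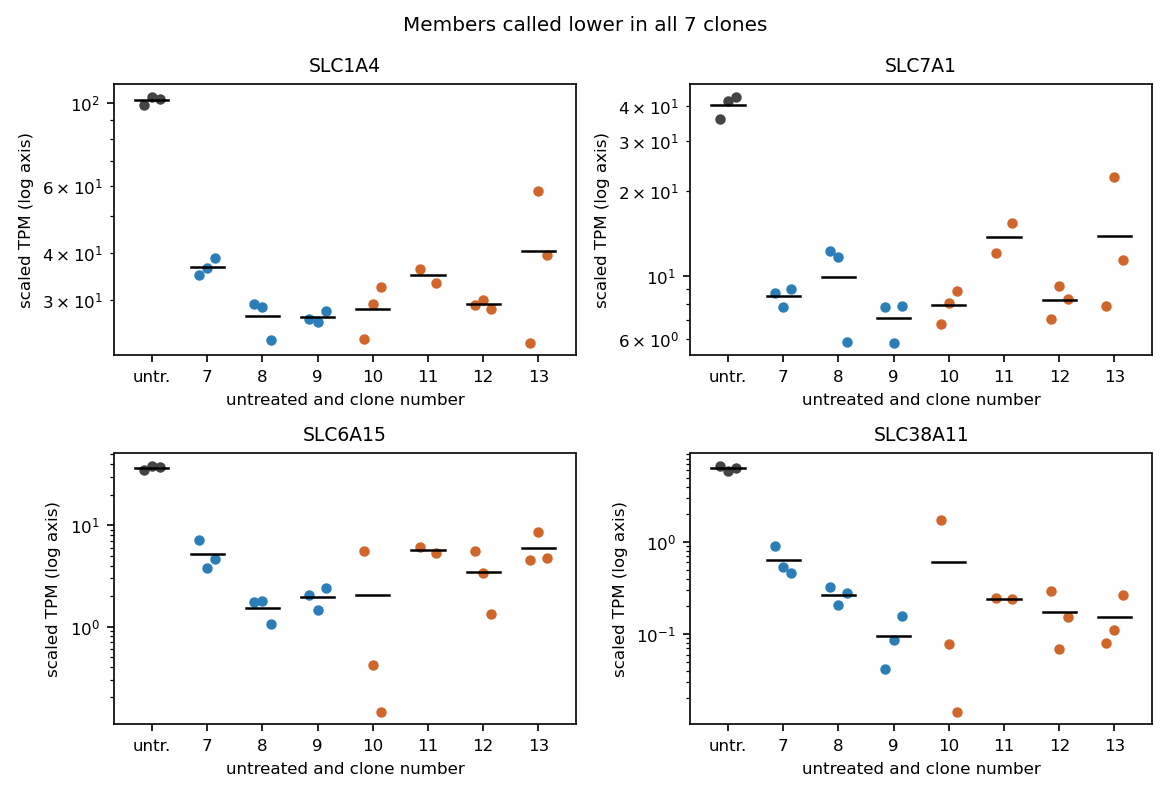
Scaled TPM of the 4 genes called lower in all 7 clones (vertical axes, log scale), by untreated line and clone number (horizontal axes); each point is 1 library, black lines are group means, grey is untreated, blue the vemurafenib clones and orange the dabrafenib/trametinib clones. All clone points lie under the untreated points, and replicate 1 of clone 10 stands above the other clone 10 libraries for SLC6A15 and SLC38A11, at 5.55 and 1.73.

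SLC6A6, which carries taurine, rose. It was at 2.72, 3.22 and 3.00 scaled TPM in untreated libraries and at 2.67 to 17.4 in clones, with a median of 6.65. Clone 11 was highest, at 17.4 and 13.6, and replicate 3 of clone 8, at 2.67, lay below the untreated range. The mean of the clones was 1.03 higher (SE 0.16, adjusted p = 2.17e-05), and without untreated replicate 1 it was 0.98, under the fold minimum. It was called in clones 10, 11 and 13, in the last only with its replicate 3 (0.98 without). SLC6A9 (GLYT1), a glycine carrier, was not called in the mean (-0.51, adjusted p = 0.0639). It was called lower in clones 7 and 8, at -1.25 and -1.22 (adjusted p = 0.00181 and 0.00211). SLC6A16, an orphan relative, was at 0.14.

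The SLC36 family moves small amino acids together with protons, SLC36A1 (PAT1) mainly out of lysosomes, and neither tested gene was called in the mean of the clones. SLC36A1 was at 2.28, 2.96 and 3.12 scaled TPM in untreated libraries and was highest in clone 11, at 6.82 and 5.64. Its difference there was 0.94 (adjusted p = 0.000727), just under the fold minimum, and past it without clone 11 replicate 3 (1.05) or untreated replicate 3 (1.00). SLC36A4 was at 5.97, 6.60 and 8.50 in untreated libraries and was called higher in clone 10 alone, at 20.7, 16.3 and 14.2, with a difference of 1.17 (adjusted p = 0.000326). The means over the clones were 0.24 (adjusted p = 0.139) and 0.49 (adjusted p = 0.0233).

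SLC1A3 (EAAT1), a high-affinity glutamate carrier, fell; the related carriers SLC1A1 and SLC1A7 were not called in the mean of the clones. SLC1A3 was at 19.8, 22.5 and 21.6 scaled TPM in untreated libraries and at 5.18 to 21.3 in clones, with a median of 8.01. Clones 7, 8 and 9 were lowest, and clone 11 (18.3 and 15.3) and replicate 1 of clone 13 (21.3) came closest to untreated. Its mean change was -1.10 (SE 0.17, adjusted p = 2.3e-05), and without scaling -0.92, under the fold minimum. It was called in clones 7, 8, 9, 10 and 12. The clone 10 call was lost without its replicate 3 (-0.99), and the clone 12 call without its replicate 3 (-0.88) or untreated replicate 2 (-0.99). Both calls were also lost without scaling, at -0.87 in clone 10 and -0.84 in clone 12. SLC1A7 was listed at 0, 0 and 0.012 in untreated libraries and at 0.0226 to 2.32 in clones (median 0.614), highest in clones 10 and 12, where it was called (in clone 12 only with its replicate 3; 0.92 without). Its mean was 0.72 (adjusted p = 0.000117), and with 0.1 added 2.56 and called (adjusted p = 3.52e-07). SLC1A1 (EAAT3) was at 0.01 in the mean of the clones (adjusted p = 0.961).

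The heavy chain SLC3A2 (4F2hc) and its light chains SLC7A5, SLC7A6, SLC7A7, SLC7A8 and SLC7A11 form a family of exchangers. The heavy chain was called in no clone. It was at 334, 319 and 316 scaled TPM in untreated libraries, and clone means ran from 240 ± 27.4 in clone 8 to 380 ± 140 in clone 13 (SD, n = 3 each). The mean difference was -0.21 (95% interval -0.50 to 0.07, adjusted p = 0.2).

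SLC7A5 (LAT1), which brings in leucine and other large neutral amino acids, fell in 5 of the 7 clones. Untreated libraries had 192, 191 and 189 scaled TPM. Clone 7 had 67.9, 67.1 and 67.9, clone 8 had 63.0, 58.3 and 47.7, and clone 9 had 82.2, 80.6 and 79.1. Clones 10 and 12 were also low, at 61.9, 85.2 and 112 and at 42.5, 56.5 and 81.5. Clone 11, at 155 and 160, and clone 13, at 46.1, 242 and 166, were not called. In clone 13 the libraries lay on either side of the untreated ones; the difference was -0.63 (adjusted p = 0.189), 0.07 without replicate 1 and -1.11, a call, without replicate 2. The mean of the clones was -1.18 (SE 0.29, adjusted p = 0.00192), and without scaling it fell just short of the fold minimum (adjusted p = 0.0106). For clone 10 the difference was -1.17 (adjusted p = 0.0155), and without its replicate 1 it was -0.95 (adjusted p = 0.0746). The clone 10 call was also lost without scaling (-0.87, adjusted p = 0.0853). Near-identical pseudogenes of SLC7A5, SLC7A5P1 and SLC7A5P2, are in the table too, and reads may be split between them.

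SLC7A11 (xCT), the light chain that trades glutamate for cystine, was above the untreated line in 5 clones and below it in the other two. Untreated libraries had 8.64, 8.83 and 9.39 scaled TPM. Clone 10 had 51.3, 54.5 and 47.9, clone 12 had 29.1, 35.3 and 34.4, clone 13 had 16.5, 38.1 and 36.7, and clone 9 had 25.0, 20.5 and 21.7. These 4 clones were called higher, with differences of 2.39, 1.76, 1.57 and 1.23. Clone 11, at 21.6 and 12.7, was above untreated but under the fold minimum (0.83, adjusted p = 0.0127). Clones 7 and 8 lay below every untreated library, at 4.69, 4.45 and 5.86 and at 6.78, 6.34 and 5.79, with differences of -0.74 (adjusted p = 0.0119) and -0.45 (adjusted p = 0.113). The mean of the clones was 0.94 (SE 0.17, adjusted p = 0.000121), and without scaling it was 1.11 and called.

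SLC7A8 (LAT2), a second carrier of large neutral amino acids, also split the clones. It was at 27.3, 27.5 and 27.5 scaled TPM in untreated libraries, and close to that in clone 7 (28.3, 25.9 and 26.7). It was called lower in clones 8, 9 and 11, by -1.48, -1.29 and -2.33, with clone 11 at 6.07 and 3.51. SLC7A6 (y+LAT2) was called lower in clones 8, 9, 12 and 13, and its mean was -0.97 (adjusted p = 2.44e-05); without untreated replicate 1 it was -1.16 and called. Its calls in single clones sat near the fold minimum, and each was lost when 1 library was left out: untreated replicate 3 for clone 9 (-0.98), clone 12 (-0.94) and clone 13 (-0.98), replicate 3 of clone 8 for clone 8 (-0.97), replicate 2 of clone 9 for clone 9 (-0.97) and replicate 3 of clone 12 for clone 12 (-0.95). Without scaling, the SLC7A6 calls in clones 9 (-0.97), 12 (-0.88) and 13 (-0.93) were lost. SLC7A7 (y+LAT1) was low throughout and at 0.01 in the mean.

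Added together, the 5 light chains came to 256 ± 5.13 scaled TPM in untreated libraries (SD, n = 3). The sum was 85.3 ± 12.5 in clone 8, 115 ± 4.23 in clone 7, 128 ± 4.49 in clone 9 and 134 ± 15.6 in clone 12 (n = 3 each). It was 180 ± 12.8 in clone 10 and 196 ± 4.94 in clone 11 (n = 2), and 230 ± 108 in clone 13, where the libraries ran from 118 to 332. SLC7A5 made up 74.6% of this sum in untreated libraries and from 44.3% (clone 12) to 80.4% (clone 11) in clones. SLC7A11 made up 3.50% in untreated libraries and from 4.34% (clone 7) to 28.6% (clone 10) in clones.

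**Figure D4:**
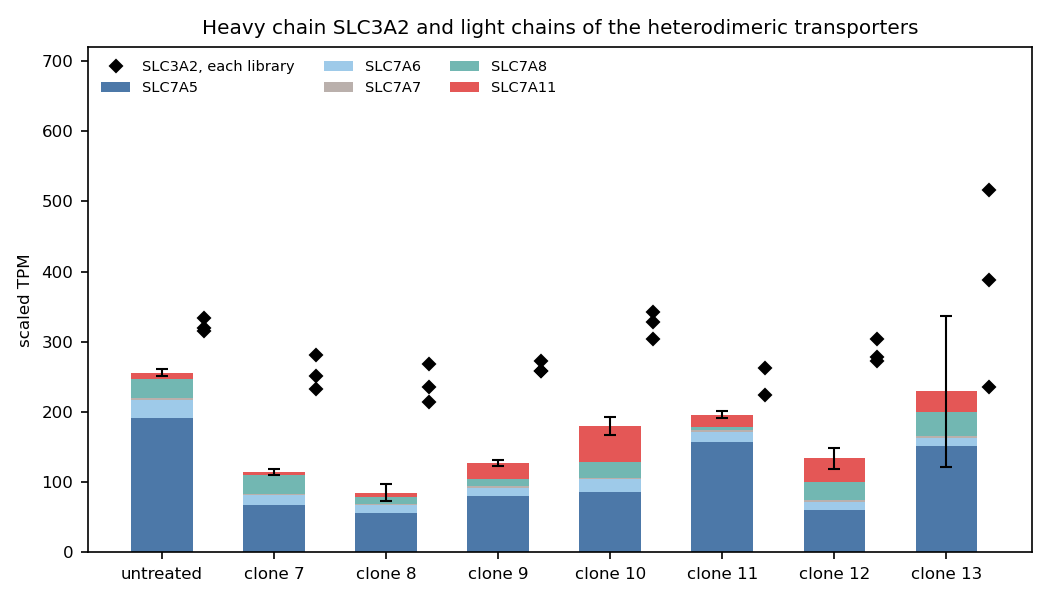
Group means of the light chain genes SLC7A5, SLC7A6, SLC7A7, SLC7A8 and SLC7A11, stacked (bars, scaled TPM, error bars the SD of the sum), with SLC3A2 as diamonds for single libraries, by untreated line and clone (horizontal axis). The stack is highest in untreated at 256 and lowest in clone 8 at 85.3, while the SLC3A2 diamonds lie between 215 and 516.

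The clones differed among themselves in most of these genes. An F test among the 7 clones, with a range of clone means of at least 1 on the log2 scale, called 18 of the 32 genes beside 25.3% of all tested genes. Among the 18, SLC38A4, SLC38A1 and SLC1A7 passed the filter on low values through clone libraries alone. The filter itself favoured their place in this count. The median range among clones was 1.06 for the 32 genes and 0.75 for all tested genes. The widest ranges were 3.33 for SLC38A4 (adjusted p = 3.51e-05), 3.13 for SLC7A11 (adjusted p = 9.53e-09), 2.60 for SLC7A8 (adjusted p = 8.39e-06), 2.24 for SLC43A2 (adjusted p = 2.15e-05) and 2.10 for SLC7A2 (adjusted p = 7.5e-05). SLC38A1, SLC6A9, SLC6A6, SLC6A15 and SLC1A7 followed, with ranges of 1.81, 1.76, 1.66, 1.63 and 1.53. The call for SLC7A5, with a range of 1.48 (adjusted p = 0.0349), was lost in 8 of the 23 fits that left out 1 library. The calls of SLC6A8, SLC38A2, SLC36A1 and SLC36A4, with ranges of 1.03, 1.17, 1.07 and 1.05, were lost in 3, 2, 1 and 1 of those fits. Without the filter on low values, the calls of SLC6A15 (adjusted p = 0.0523) and SLC7A5 (adjusted p = 0.0866) were lost. For 4 genes, SLC7A11, SLC38A1, SLC6A9 and SLC1A1, a clone lay wholly above and another wholly below the untreated libraries with the pair called different, beside 6.2% of all tested genes. The filter favoured the place of SLC38A1 in this count too. SLC1A4 and SLC38A11, by contrast, ranged over 0.47 and 0.57 and were not called among the clones.

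**Figure D5:**
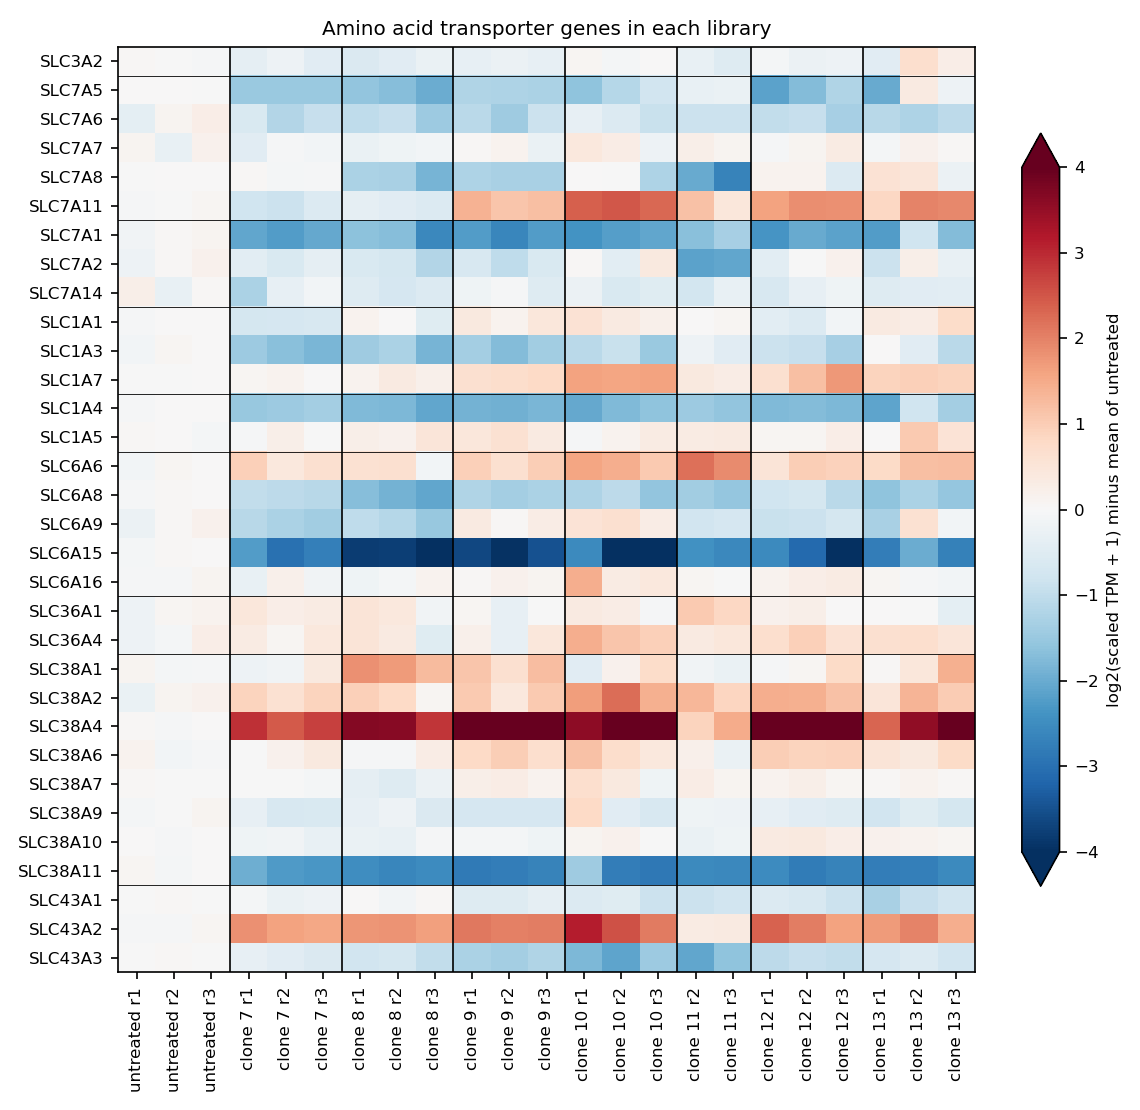
The 32 tested transporter genes (rows) in each library (columns), untreated libraries included. Colour gives log2 of scaled TPM + 1 minus the mean of the untreated libraries, limited to 4 in either direction. SLC38A4 is red and SLC6A15, SLC38A11, SLC7A1 and SLC1A4 are blue in all clone libraries. SLC7A11 is blue in the libraries of clone 7 and red in those of clone 10.

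Clone 11 alone had transporter genes called lower than in every other clone. SLC38A4, SLC43A2 and SLC7A2 were called lower in clone 11 than in each of the other 6 clones, 3 of 32 beside 0.358% of all tested genes. Of these, SLC38A4 passed the filter on low values through clone libraries alone. No transporter gene was called lower in any other clone, or higher in any clone, against each of its 6 counterparts. Such calls were rare among all 15657 tested genes too, at 0 to 54 lower in each other clone and 5 to 143 higher in each clone. Against clone 10, clone 11 was lower by -2.24 for SLC43A2 (adjusted p = 9.86e-07) and by -2.10 for SLC7A2 (adjusted p = 1.07e-05). Against clone 9 it was lower by -3.33 for SLC38A4 (adjusted p = 1.77e-05), and SLC7A8 was 2.60 higher in clone 13 than in clone 11 (adjusted p = 9.49e-06). SLC6A6 was highest in clone 11, but its differences from clones 10 and 13 were not called. Clone 11 had only 2 libraries.

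In clone 13, several transporter genes stood low in replicate 1 and high in replicate 2. SLC7A5 was at 46.1 in replicate 1 against 242 and 166 in replicates 2 and 3, SLC3A2 at 236 against 516 and 388, and SLC1A5 at 243 against 504 and 352. SLC1A4 was at 23.0 against 58.4 and 39.3, and SLC7A11 at 16.5 against 38.1 and 36.7. ATF4 was at 543 in replicate 1 and 1088 and 1022 in the others, and ASNS, asparagine synthetase and a known ATF4 target, was at 81.2 against 425 and 359. SLC1A3 ran the other way, at 21.3, 15.2 and 9.56. These genes were picked after the values were seen, and what separated the 3 libraries was not tested.

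The drug arms were compared over clone means, 4 dabrafenib/trametinib clones against 3 vemurafenib clones. No transporter gene was called by limma, beside 0.0128% of all tested genes (2 genes). At an unadjusted p under 0.05 there were 6 of the 32 genes and 2258 of all tested genes. SLC7A11 was 1.62 higher in the dabrafenib/trametinib clones (95% interval 0.42 to 2.83, adjusted p = 0.261), with the clone means of the arms overlapping. SLC1A3 was 0.79 higher (95% interval 0.28 to 1.31, adjusted p = 0.24), without overlap. With so few clones an adjusted p above the threshold does not show that the arms were alike.

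Genes that use, make or sense amino acids were set beside the transporters. The lists below are read against the shares of all tested genes called in the mean of the clones, 10.9% higher and 7.91% lower. Of 38 genes of amino acid sensing and mTORC1 signalling, DEPTOR alone was called higher and 2 were called lower across the clones (median -0.25, against -0.01 for all tested genes). DEPTOR, an inhibitor bound to mTOR, rose by 4.06 in the mean, while SESN3, a sestrin, and RRAGD, one of the Rag GTPases that bring mTORC1 to the lysosome, were at -1.87 and -1.81. MTOR itself was at -0.41 (adjusted p = 0.000666). Of 20 aminoacyl-tRNA synthetase genes, none was called by limma (median -0.14).

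Of 29 genes in a list of ATF4, its known targets and the kinases upstream of it, 5 were called higher and 1 lower (median -0.18). STC2, VEGFA and CEBPB were higher by 3.46, 1.28 and 1.27. EIF2AK2 (PKR), an upstream kinase that is also induced by interferon, was higher by 1.45, and CTH, which makes cysteine from cystathionine, was at -1.84. ATF4 was at 774 ± 22.8 scaled TPM in untreated libraries (SD, n = 3) and at means of 597 to 882 in clones. Its mean difference was -0.05 (limma, adjusted p = 0.778). These are RNA levels, and ATF4 protein was not measured. Of 36 tested genes of amino acid metabolism, 2 were called higher and 3 lower (median -0.24). TDO2 and KYNU, enzymes of tryptophan breakdown, rose by 4.07 and 2.66, and CTH, PRODH (proline breakdown) and ODC1 (polyamine synthesis) were at -1.84, -1.31 and -1.17.

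Of 13 genes of glutathione synthesis, use and breakdown and of the linked antioxidant response, 2 were called higher and none lower (median 0.36). TXNRD1, thioredoxin reductase, rose by 2.60, from a mean of 49.2 scaled TPM in untreated libraries to 268, 171, 294, 473, 281, 354 and 435 in clones 7 to 13. GCLM, a subunit of the enzyme that makes the glutathione precursor, rose by 1.59, from 5.06 to 6.36, 10.9, 29.9, 31.8, 8.87, 19.5 and 37.9. For SLC7A11, the cystine carrier, the clone means in the same order were 5.00, 6.30, 22.4, 51.2, 17.2, 32.9 and 30.4, against 8.96 in untreated libraries. Of 14 tested carriers of amino acids outside these families, 1 was called higher and 3 lower (median -0.32). SLC15A3, a lysosomal peptide and histidine carrier, rose by 2.51. SLC25A13 (mitochondrial aspartate-glutamate exchange), MFSD12 (cysteine entry into melanosomes and lysosomes) and SLC16A10 (aromatic amino acids) were at -1.92, -1.88 and -1.49.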

How the data were processed

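Poly(A) RNA was sequenced in paired ends, per the labels' protocols. The deposited table holds TPM values per gene symbol for the 23 libraries analysed here; its name speaks of counts, but its columns hold fractional values that all reach the same sum, as TPM do. Per the submitters' processing notes, the build was hg19 and kallisto was used; the transcript annotation is not given in the sources used here. With TPM the depth is unknown, so no counting intervals are given. All 23 sample columns were used, and 0 were left out.

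Values were scaled with trimmed mean factors over 10822 genes (30% trimmed on log ratio, 5% on level). Genes with at least 1 TPM in at least 2 libraries were kept. SLC38A4, SLC38A1, SLC1A7 and SLC6A16 were kept through clone libraries alone. Values were put on the scale of log2(scaled TPM + 1) and fitted with limma 3.58.1 in R 4.3.3 over all 8 groups, with a moderated spread that follows the level. The drug arms were fitted over clone means. The code was tested on simulated data. Named were genes called in the mean of the clones, those called the same way in every clone, the 10 widest ranges among clones, and in each other list up to 5 called genes; genes picked after their values were seen are said to be so, or are given as members without a call. Alternatives were no scaling, a pseudocount of 0.1, no filter, a replicate block, no trend, and leaving out each library. The members and lists were chosen with earlier results of these data known. Promoter windows came from RefSeq (GRCh38.p14); no coordinates of the files were used. Some single genes are not reported here.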

Additional observations from a re-analysis of the deposited data

Results flagged for a closer look

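Transporter genes were examined for a clone mean far from the others, by the gap to the nearest clone mean divided by the whole range; chance alone finds about 1 in 20 such groups, and 4 were found in 64. Clone 11 was lowest for SLC43A2 among the 7 clone means (0.597 of the range) and for SLC7A2 (0.606), and for SLC7A2 also among the 4 dabrafenib/trametinib clone means (0.853). Clone 10 was highest for SLC6A16 (0.606), where its libraries had 4.00, 1.30 and 1.46 scaled TPM and the highest came from replicate 1, the library with the fewest genes above 0. SLC6A16 passed the filter on low values through clone libraries alone, so the filter itself favoured a high clone.

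For 4 of the 32 genes, every library of a clone lay above every untreated library while every library of another lay below, and the pair of clones was called different; 6.2% of all tested genes showed this. SLC7A11 was above in clone 10 and below in clone 7, and the pair differed by 3.13 on the log2 scale (adjusted p = 7.89e-09). SLC38A1 was above in clone 8 and below in clone 11 (difference 1.81), although its levels in clone 11 and in untreated libraries were all under 0.5 scaled TPM. It passed the filter on low values through clone libraries alone, so the filter itself favoured its place in this count. SLC6A9 was above in clone 10 and below in clone 7 (1.76), and SLC1A1 was above in clone 13 and below in clone 7 (1.13).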

How the results depend on the processing

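No called result changed direction under any alternative. Without scaling, the mean of the clones gave 5 transporter genes called higher against 5 called lower, with 8 higher and 5 lower in clone 10, and 5 higher and 8 lower in clone 11. With a pseudocount of 0.1, 6 were called higher in clone 9 and 5 in clone 11. Without the filter, and with a replicate block, 0 genes were called higher in all 7 clones. Whether the replicate numbers pair the libraries was not settled. Over 77 pairs of libraries with the same number in different groups, the correlation of their deviations ran from -0.62 to 0.42 (median 0.01). Of these pairs, 28 were over 0.1, and the median for pairs with different numbers was -0.009. In all, 12 libraries correlated best with their own number. Leaving out 1 library at a time gave 2 to 4 genes higher and 8 to 9 lower in the mean of the clones. It gave 2 to 2, 3 to 3, 3 to 5, 7 to 7, 1 to 4, 4 to 6 and 3 to 5 higher, and 8 to 9, 9 to 10, 9 to 10, 7 to 8, 8 to 9, 5 to 8 and 5 to 8 lower, in clones 7 to 13. It gave 0 to 1 higher and 4 to 4 lower in all 7 clones, 15 to 19 in the F test, 2 to 4 lower in clone 11 than in each other clone, and 0 between drug arms. Without scaling, the median of all tested genes in the mean of the clones was 0.14, and with it -0.01. The unscaled median was 0.208 in clone 10 and 0.214 in clone 11. Over all tested genes, 1699 were called higher and 1239 lower, and without scaling 2006 and 973.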
